A study of Mus musculus with 15 samples.

Results

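The response of mouse T helper 2 (Th2) cells with intact Asb2 to renewed stimulation of the T cell receptor was measured across all genes. It was taken from 8 of the 15 RNA-seq libraries of the series, chosen by their labels alone: 3 libraries of control cells that were not stimulated again and 5 libraries of control cells stimulated for 24 h. The series compared Th2 cells with and without Asb2, which encodes a subunit that selects the substrates of an E3 ubiquitin ligase, at rest and after stimulation. Control mice were female and carried floxed Asb2 alleles (Asb2fl/fl) without Cre recombinase. The other 7 libraries, 3 not stimulated and 4 stimulated, came from mice with the same alleles and Cre under the VE-cadherin promoter (VEC-Cre;Asb2fl/fl). They enter here only in the filter, scaling and estimate of the spread, in the principal components and in 1 comparison at the end. The age of the mice is not given.

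All groups began as naive CD4+ cells isolated from the spleen. They were grown for 3 days on plate-bound anti-CD3ε at 5 µg/ml with anti-IFNγ at 10 µg/ml, IL-4 at 40 ng/ml, IL-2 at 10 ng/ml and 1 µg/ml of anti-CD28. Cells were then divided over 5 uncoated plates for 3 more days with IL-2 and IL-4 at 20 ng/ml each and no antibody. At day 5, stimulated cells received anti-CD3ε bound to the plate (3 µg/ml) and anti-CD28 in solution (2 µg/ml), so all cells had been activated before. When the non-stimulated cells were harvested is not stated in the sources used here, and if it was not at the same time, time in culture and stimulation cannot be told apart in any fold below. The labels do not tie libraries to separate mice or plates, and p-values therefore measure only the spread between these libraries, which may be technical. The wells are bulk samples, in which fewer cells of a type and less RNA per cell cannot be told apart.

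Engagement of the T cell receptor together with CD28 activates calcineurin and the NFAT factors, the Ras-MAP kinase pathway that induces AP-1 and EGR factors, and the IκB kinase pathway that releases NF-κB. It also activates mTORC1 and MYC, which drive uptake of nutrients and the making of ribosomes. In Th2 cells this ends in the secretion of IL-4, IL-5 and IL-13, the cytokines of allergic inflammation and of defence against worms.

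Estimated counts totalled between 17083680 and 23523662 per control library. Principal components of log2 CPM (read counts scaled to a common library size) were taken over all 15 libraries, those with VEC-Cre included. The first held 65.7% of the variance and separated the stimulated from the non-stimulated libraries. On the second, with 5.06%, non-stimulated library 3 (score 23.7) and stimulated libraries 4 (19.1) and 5 (17.8) lay apart from the other 5 control libraries (-21 to -4.21). Genes of CD4+ T cells were expressed throughout, with Cd4 at 342 to 437 CPM in non-stimulated and 351 to 416 CPM in stimulated libraries. Gata3, the factor that specifies Th2 cells, lay at 685, 674 and 745 CPM in the non-stimulated and 663, 739, 715, 734 and 756 CPM in the stimulated libraries, and the groups overlapped. Asb2 itself was at 36.7 ± 12.2 CPM (SD, n = 3) without and 33.5 ± 2.72 CPM (SD, n = 5) with stimulation and was not called. Neutrophil and erythroid markers summed to at most 0.865 and 0.303 CPM in any control library.

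Other marker lists moved with stimulation. Of 10 markers of CD4+ T cells, 2 were called higher and 5 lower, and their sum went from 3089 to 3459 CPM without to 2536 to 2948 CPM with stimulation. The 8 dendritic cell markers summed to 8.32 to 18.5 CPM and 19.7 to 32.1 CPM, with 3 of 4 tested called higher (Batf3, Flt3 and Zbtb46), 1 lower (Itgax) and 3 at 0 in all 8 libraries. The call for Batf3 was lost without non-stimulated library 1 or 2 or stimulated library 1 (adjusted p = 0.075, 0.108 and 0.055). The 8 B cell markers summed to 2.12 to 5.49 CPM and 5.65 to 13.8 CPM, and 1 of 7 tested was called, Ebf1, a factor of early B cells (13.4-fold higher). Platelet markers summed to 0.346 to 0.642 CPM and 0.658 to 1.16 CPM. The macrophage and endothelial lists, which fell, are given below with their genes. The part of such cells in the results was not tested.

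Of the 9 markers of CD8+ and cytotoxic cells, 7 were tested, and their sum differed between libraries of 1 group more than between groups. The sum was 239, 318 and 735 CPM in non-stimulated libraries 1 to 3. It was 259, 237, 296, 728 and 259 CPM in stimulated libraries 1 to 5. Non-stimulated library 3 and stimulated library 4 thus stood above the rest. The defining gene Cd8a was at 2.25, 1.76 and 13.4 CPM and, after stimulation, at 9.31, 3.04, 3.5, 16.5 and 5.32 CPM. Prf1, which encodes perforin, was at 53.2, 91.9 and 191 CPM and 95.6, 82.1, 139, 294 and 91.1 CPM.

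A total of 7897 of 15619 genes tested (50.6%) differed between stimulated and non-stimulated control cells by edgeR's quasi-likelihood test at a Benjamini-Hochberg adjusted p under 0.05, which is what "called" means below. Of these, 3961 (25.4% of genes tested) rose and 3936 (25.2%) fell. Changes of at least 2-fold were called in 1222 genes (7.82%) upwards and 1578 genes (10.1%) downwards, and changes of at least 4-fold in 416 (2.66%) and 486 (3.11%). In 7489 genes (47.9%) the 3 non-stimulated and 5 stimulated libraries did not overlap. Rises made up 50.2% of called genes on the count scale and 64.0% on log2 of the deposited TPM plus 0.1, where the median of all genes was 0.142 higher. Falls are the less certain side of the counts below: of 42 lists and families with at least 5 falls, 26 had over 1.5 times fewer on that TPM scale, while 1 of 47 with at least 5 rises had over 1.5 times fewer rises. Every gene given below with a fold change had all 5 stimulated libraries on the same side of all 3 non-stimulated libraries, unless stated otherwise.

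**Figure D1:**
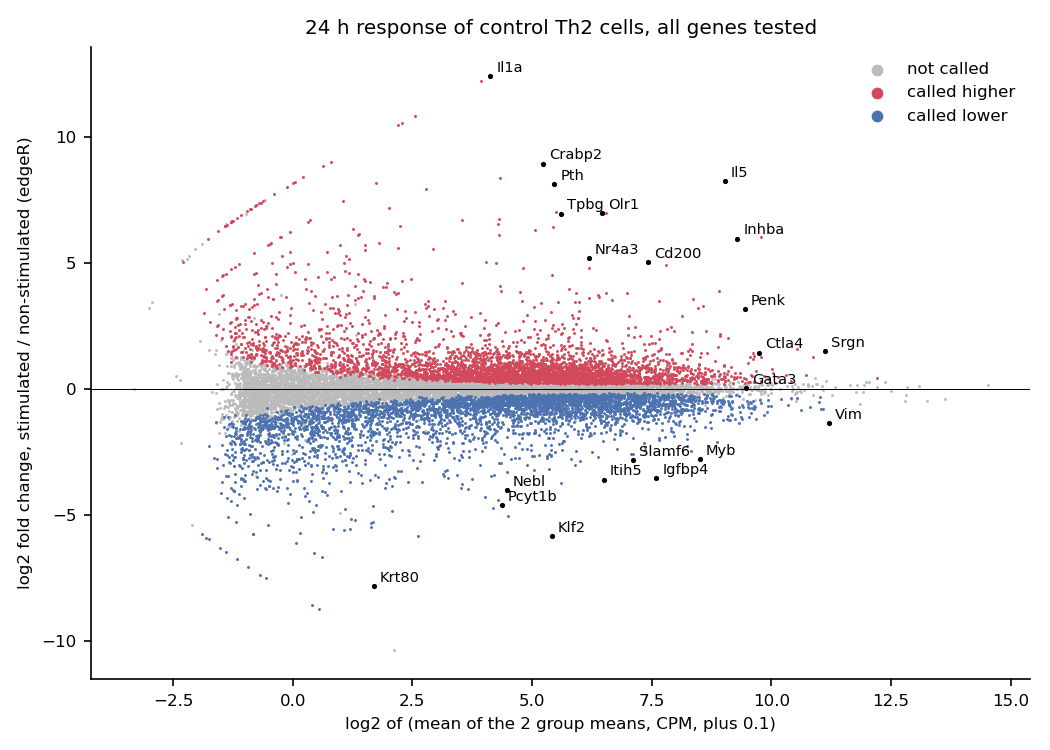
Log2 fold change of each of the 15619 genes tested (stimulated over non-stimulated control cells, edgeR) against the log2 of its mean CPM plus 0.1, with called genes in red (higher) and blue (lower), others in grey and named genes in black. Of the genes named in the plot, Il1a at 12.41 (no count without stimulation) and Crabp2 at 8.93 rose most. Krt80 at -7.81 and Klf2 at -5.84 fell most.

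Secreted proteins were described first. Of 22 tested cytokine genes, 20 rose and 2 fell, with a median log2 fold change of 3.45 against 0.00 over all genes tested, unchanged with the genes at 0 counts set to their bound. The summed level of the list went from 582 to 5548 CPM. The 2 that fell were Ltb, the membrane-anchoring partner of lymphotoxin alpha (48.1, 54.3 and 46.7 CPM to 10.7, 8, 9.15, 5.97 and 13.6 CPM, 5.24-fold lower), and Il16, a ligand of CD4 that is made constitutively (1.91-fold lower). Il24, a cytokine of the IL-10 family, was at 54.5, 59 and 99.2 CPM before and 501, 702, 786, 886 and 584 CPM after stimulation, 9.74-fold higher. The Th2 cytokine genes Il5 and Il13 were 299-fold and 65-fold higher, and Il4 was 10.9-fold higher.

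A further 3 cytokine genes had no count in any non-stimulated library. Il1a, which encodes IL-1 alpha, was at 42.5, 33.9, 35.2, 31.6 and 30 CPM after stimulation, at least 708-fold higher against a floor of 3 counts over the group. Il3, a growth factor of mast cells and basophils, was at 26.2, 21.2, 41.6, 39.5 and 22.9 CPM, at least 619-fold higher. Il2 was at 18.4, 6.78, 7.25, 3.57 and 9.19 CPM, at least 184-fold higher, and its levels varied more between the stimulated libraries than those of Il1a.

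Growth factor and hormone genes moved in both directions. Of 26 tested genes of growth factors, hormones and neuropeptides, 13 rose and 8 fell, and their summed level went from 1047 to 3561 CPM. Inhba (ENSMUSG00000041324), which encodes the subunit of activin A, was at 24.1, 10.3 and 24.2 CPM in the non-stimulated and 1044, 1360.4, 1179, 1225 and 1307 CPM in the stimulated libraries. That is a rise of 62.5-fold (log2 fold change 5.96 ± 0.33 SE, edgeR adjusted p = 4.2e-09). Penk (ENSMUSG00000045573), the precursor of the enkephalin opioid peptides, was already well expressed at 124, 156 and 142 CPM and reached 915, 1196, 1390.1, 1633 and 1127 CPM, 8.9-fold higher (log2 3.15 ± 0.32, adjusted p = 2.3e-06). In TPM, which allows for gene length, Penk went from a mean of 119 to 1173, a level between those of Il5 (787 TPM) and Il13 (1766 TPM) in the same stimulated libraries.

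Pth (ENSMUSG00000059077), the gene of parathyroid hormone, which raises blood calcium and is made mainly by the parathyroid gland, was at 0.214, 0.0517 and 0.606 CPM without and 126, 87.2, 83.1, 78.8 and 60.8 CPM with stimulation. The rise was 277-fold (log2 8.11 ± 0.48, adjusted p = 1.7e-08) and was present in all 5 stimulated libraries, with library 1 the highest and library 5 the lowest. Areg, which encodes the EGF receptor ligand amphiregulin, went from 0.268, 0.103 and 1.21 CPM to 19.3, 51, 38.4, 38 and 48.7 CPM (68.5-fold higher), with the lowest stimulated value in library 1. Non-stimulated library 3 was the highest of its group for both, and without it the log2 fold changes were 9.31 for Pth and 7.68 for Areg, against 8.11 and 6.10 with all libraries. Spx, the gene of the neuropeptide spexin, was not counted in the growth factor list and was 46.7-fold higher, at 10.1 to 22.9 CPM after stimulation. Among members of the list that fell, Bmp7, a bone morphogenetic protein, went from 16.1, 14.1 and 19.5 CPM to 3.24, 4.15, 3.4, 4.01 and 4.04 CPM (4.39-fold lower). Metrnl, the gene of the secreted meteorin-like protein, was 5.51-fold lower, Pglyrp1, which encodes a peptidoglycan-binding protein, 3.12-fold lower, and Flt3l, the ligand of the FLT3 receptor, 1.83-fold lower.

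Of 8 tested chemokine genes, 7 rose and none fell. The inflammatory chemokine genes Ccl3, Ccl4 and Ccl9 were 129.5-fold, 27.4-fold and 328-fold higher. Cxcl3, a ligand of the neutrophil receptor CXCR2, went from 0.375, 0.258 and 1.73 CPM to 46.2, 68.7, 64.6, 68.2 and 80.1 CPM, 77.8-fold higher, with non-stimulated library 3 the highest of its group. Without that library the log2 fold change was 7.67 in place of 6.28 for Cxcl3 and 5.51 in place of 4.78 for Ccl4, and without non-stimulated library 1 it was 9.01 in place of 8.36 for Ccl9. The spread of Ccl3 among stimulated libraries is given with the variable genes below.

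Proteases, their inhibitors and matrix genes went more often down than up: 9 of 36 rose and 15 fell, with a median of -0.30, which was 0.03 on log2 of TPM plus 0.1. Timp1 (ENSMUSG00000001131), an inhibitor of metalloproteinases, rose from 0.161, 0.31 and 0.173 CPM to 25.9, 20.5, 34.5, 18.5 and 14.9 CPM (104-fold, log2 6.71 ± 0.38, adjusted p = 1.1e-09). Fn1, the gene of fibronectin, was 2.51-fold higher. In the other direction, members of the list that fell included Ctsw and Ctla2b, 3.81-fold and 3.41-fold lower, and Mmp10 and Thbs1, given below. Itih5, Igfbp4, Col15a1 and Anxa1 also fell but were not counted in the list. Itih5, the heavy chain of a hyaluronan-binding inhibitor, was at 192, 165 and 141 CPM before and 18.3, 12.6, 13.3, 12 and 12.6 CPM after stimulation, 12.1-fold lower. Igfbp4 (ENSMUSG00000017493), which binds insulin-like growth factors, fell from 399.8, 400.2 and 261 CPM to 37.7, 31.1, 35.3, 19.2 and 29.1 CPM, 11.6-fold lower (log2 -3.54 ± 0.23, adjusted p = 2.6e-08). The metalloproteinase gene Mmp10 was 7.13-fold lower and the matrix genes Col15a1 and Thbs1 were 11.5-fold and 3.91-fold lower, so that an inhibitor gene of this enzyme class and an enzyme gene moved in opposite directions. Anxa1, which encodes the anti-inflammatory protein annexin A1, fell from 21.1, 34.7 and 18.3 CPM to 1.54, 2.38, 2.15, 2.84 and 1.33 CPM (12-fold lower).

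Srgn, the gene of the granule proteoglycan serglycin, showed how a modest fold can carry much RNA. It was at 1137, 1149 and 1180.1 CPM in the non-stimulated and 2329, 3224, 3263, 4054 and 3579 CPM in the stimulated libraries, 2.85-fold higher. In TPM it went from 1468 to 4667, a gain above that of Il13, which went from 24.2 to 1766 TPM. Of the genes given here only by a fold, Ero1a, an oxidase of protein folding in the endoplasmic reticulum, gained 2.41-fold and went from 334 to 968 TPM.

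**Figure D2:**
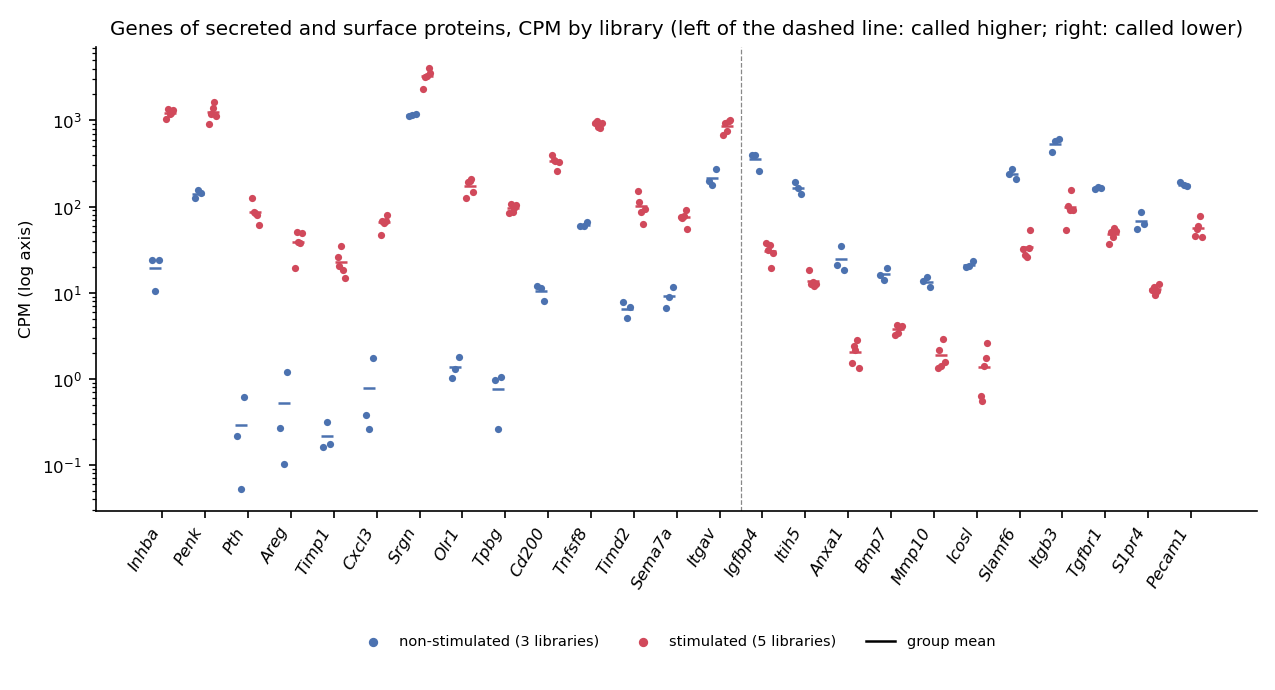
CPM on a log axis in each of the 3 non-stimulated (blue) and 5 stimulated (red) control libraries for 25 genes of secreted and surface proteins, with a bar at each group mean. Left of the dashed line the red points lie above the blue points in all 14 genes, and right of it below them in all 11.

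Genes of surface proteins were described by class. Among 24 tested ligands and receptors of the TNF superfamily, 12 rose and 4 fell (median 0.57). Tnfsf8, which encodes the CD30 ligand, went from 58.7, 58.6 and 66.4 CPM to 921, 982, 848, 821 and 934 CPM, 14.7-fold higher. Its receptor gene Tnfrsf8 moved the other way, from 1183, 1132 and 1405 CPM to 522, 639, 612, 659 and 553 CPM, 2.08-fold lower. Tnfsf11, the ligand of RANK, was 7.64-fold higher, Cd40lg, the ligand of CD40, 4.18-fold higher, and Tnfrsf4, which encodes the co-stimulatory receptor OX40, 2.71-fold higher. Tnfsf13b, the gene of the B cell survival factor BAFF, fell (5.07-fold lower).

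Co-stimulatory and inhibitory receptors were split, with 14 of 36 higher and 15 lower. Cd200, whose product engages an inhibitory receptor on myeloid cells, was at 11.9, 11.2 and 8.09 CPM before and 394, 345, 340.4, 260.0 and 328 CPM after stimulation (32.2-fold higher). Timd2, a receptor of ferritin of the TIM family, went from 7.76, 5.07 and 6.75 CPM to 151, 114, 87.4, 62 and 94.2 CPM (15.6-fold higher). The inhibitory receptors Btla and Ctla4 were 7.43-fold and 2.71-fold higher, and Crtam, an adhesion receptor of activated T cells, 6.87-fold higher. Icosl, the ligand of ICOS, fell from 19.7, 20.4 and 23.2 CPM to 0.638, 0.557, 1.4, 1.73 and 2.6 CPM (15.4-fold lower). Its log2 fold change of -3.94 became -4.58 without stimulated libraries 4 and 5. Slamf6, a self-binding receptor of the SLAM family, fell from 238, 274 and 209 CPM to 31.8, 27.3, 25.7, 33 and 53.6 CPM (7.01-fold lower), with stimulated library 5 the highest of its group. Lair1, an inhibitory receptor of collagens, was 7.28-fold lower, and Cd28, the target of the anti-CD28 antibody in solution, 1.47-fold lower. The call for Cd28 was not kept on log2 of TPM plus 0.1 (adjusted p = 0.066).

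The rises among adhesion genes were outnumbered by falls, at 15 and 29 of 54 with a median of -0.68. Itgav, the alpha V integrin subunit, rose from 199, 179 and 272 CPM to 672, 922, 744, 994 and 1008 CPM (4.01-fold), whereas Itgb3, one of the beta subunits that pair with it, fell from 429, 573 and 610.0 CPM to 53.2, 100.2, 90.3, 156 and 91.1 CPM (5.48-fold lower). Itga1, a collagen-binding integrin subunit, was 11.2-fold lower (log2 -3.48, or -4.22 without stimulated library 4). Pecam1, an adhesion molecule of endothelium and leukocytes, was at 191, 177 and 171 CPM before and 45.5, 54.1, 59.5, 77.1 and 44.3 CPM after stimulation (3.21-fold lower). The other 6 endothelial markers were not tested because of low counts, 3 of them with no count in any control library. Sema7a, a membrane-anchored semaphorin, and Nrp1, a semaphorin co-receptor, were 8.21-fold and 5.05-fold higher. L1cam, an adhesion molecule of neurons and leukocytes that was not counted in the list, was 11.1-fold lower.

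Among surface proteins, a lipoprotein receptor and an embryonic glycoprotein had some of the largest rises. Olr1 (ENSMUSG00000030162), which encodes LOX-1, a receptor of oxidised lipoproteins, was at 1.02, 1.29 and 1.77 CPM without and 126, 195, 196, 207 and 146 CPM with stimulation. The fold was 125-fold (log2 6.97 ± 0.28, adjusted p = 6.9e-11). Tpbg (ENSMUSG00000035274), which encodes the trophoblast glycoprotein 5T4, was at 0.963, 0.258 and 1.04 CPM and 84.3, 106, 85.4, 97.2 and 105 CPM, 124-fold higher (log2 6.95 ± 0.27, adjusted p = 1.4e-11). All 5 stimulated libraries of both genes lay far above all non-stimulated libraries. Pdpn, the gene of the mucin-like protein podoplanin, had no count without stimulation and was at 5.16, 11, 11.8, 23.5 and 6.01 CPM with it, at least 234-fold higher.

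The upstream windows of 4 genes with such rises are shown because each holds a sequence that matches the binding motif of AP-1 or NF-κB, factors named in the background above. They were picked for holding a match. Each is 250 bases before the start of a RefSeq transcript on the strand of the gene, from the GRCm38.p6 assembly, matched by gene symbol. The counts were made on GRCm39, so the positions apply to GRCm38.p6 only. Capitals mark TGANTCA (AP-1) in the first 3 windows and the NF-κB motif in the last, where N is any base; both strands were searched for each motif. The windows are chr9:85842130-85842379 on the plus strand for Tpbg, chr6:129507166-129507415 on the minus strand for Olr1, chr2:129309973-129310222 on the minus strand for Il1a and chr5:90785851-90786100 on the plus strand for Cxcl3.
Tpbg: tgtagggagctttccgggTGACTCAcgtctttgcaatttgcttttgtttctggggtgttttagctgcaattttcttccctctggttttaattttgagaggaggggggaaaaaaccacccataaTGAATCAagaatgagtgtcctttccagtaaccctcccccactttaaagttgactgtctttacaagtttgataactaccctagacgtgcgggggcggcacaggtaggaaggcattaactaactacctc
Olr1: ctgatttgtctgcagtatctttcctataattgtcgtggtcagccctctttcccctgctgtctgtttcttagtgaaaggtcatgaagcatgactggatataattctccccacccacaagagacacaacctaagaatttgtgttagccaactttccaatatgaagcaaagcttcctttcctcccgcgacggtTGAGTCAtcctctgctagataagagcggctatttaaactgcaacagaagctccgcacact
Il1a: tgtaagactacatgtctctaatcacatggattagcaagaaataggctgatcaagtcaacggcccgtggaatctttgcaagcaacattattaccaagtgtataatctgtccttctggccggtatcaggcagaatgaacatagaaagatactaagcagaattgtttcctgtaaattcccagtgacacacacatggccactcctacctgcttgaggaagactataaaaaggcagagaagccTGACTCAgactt
Cxcl3: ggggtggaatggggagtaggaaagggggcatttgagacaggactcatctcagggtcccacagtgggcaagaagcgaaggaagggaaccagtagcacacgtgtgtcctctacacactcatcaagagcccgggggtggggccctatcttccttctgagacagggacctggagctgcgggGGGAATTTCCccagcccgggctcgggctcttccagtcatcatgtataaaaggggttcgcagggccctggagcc
The matches began 232 and 127 bases before the start in Tpbg, 60 bases in Olr1, 12 bases in Il1a and 73 bases in Cxcl3. A further window of Tpbg in the table, upstream of another start at chr9:85842602-85842851, held no match of the AP-1 motif. Not every gene had a window in the table, and a gene can have several. Windows were found for 269 genes called at least 4-fold higher, 311 called at least 4-fold lower and 10238 of all genes tested. Among these, 8.83% of 351 upstream windows of the genes called higher held the AP-1 motif. The share was 8.13% of 418 windows of the genes called lower and 4.5% of 13035 windows of the genes tested. For the NF-κB motif the shares were 3.7%, 2.15% and 1.54%. Over all 32851 windows of the RefSeq table the shares were 6.75% and 1.41%. Other motifs were searched too. The E-box of MYC and clock factors (CACGTG) was in 5.98% of windows of genes called higher, 4.55% of those called lower and 8.18% of those tested. For the motif of RUNX factors (AACCACA) the shares were 4.84%, 6.46% and 3.38%. Over all windows of the RefSeq table they were 6.02% for the E-box and 4.4% for RUNX. Windows of genes that fell therefore held the AP-1 motif in about the same share as those of genes that rose. A match is a description of the letters only.

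Receptors of soluble ligands showed rises and falls in nearly equal number for cytokine receptors, with 14 of 34 higher and 13 lower. Il10ra and Il12rb1, receptor chains for IL-10 and IL-12, were 2.32-fold and 2.22-fold higher. Il12rb2, the chain that completes the IL-12 receptor and is known from Th1 cells, was at 43, 47.8 and 95 CPM before and 161, 119.7, 121, 223 and 129 CPM after stimulation (2.43-fold higher), highest in stimulated library 4. Il4ra, the receptor chain shared by IL-4 and IL-13, fell from 837, 826 and 1021 CPM to 382, 431, 452, 427 and 382 CPM (2.16-fold lower). The receptor genes Tgfbr1, Ifngr1 and Il17ra, for TGF-beta, interferon gamma and IL-17, were 3.44-fold, 3.34-fold and 3.29-fold lower. For Tgfbr1 the values were 159, 170.0 and 166 CPM and 36.2, 50.9, 44.6, 55.8 and 52.4 CPM. Of ligand genes described elsewhere here, Il4, Il13 and Ifng rose in the same libraries.

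Of 44 chemokine receptors and receptors of lipids, purines and orphan ligands, 9 rose and 19 fell. Gpr65, a proton-sensing receptor, rose from 41.1, 29.4 and 73.2 CPM to 137, 232, 184, 289 and 209 CPM (4.38-fold). Gpr83, a receptor of neuropeptides, was 4.3-fold higher and Ramp3, which modifies receptors of the calcitonin family, 3.44-fold higher. S1pr4, a receptor of sphingosine 1-phosphate on lymphocytes, fell from 55, 86.5 and 62.6 CPM to 10.6, 11.7, 9.45, 10.3 and 12.6 CPM (6.22-fold lower). Cxcr4, the receptor of CXCL12, Ltb4r1, the leukotriene B4 receptor, and P2rx7, an ATP-gated channel, were 3.34-fold, 3.99-fold and 2.84-fold lower. None of the 9 tested adhesion G protein-coupled receptor genes rose and 7 fell, among them Adgre1 (13-fold lower), which is also a macrophage marker. The macrophage and monocyte list summed to 13.4 to 23.4 CPM without and 2.98 to 5.85 CPM with stimulation; Lyz2 had no count in any control library.

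Ion channels and calcium entry genes fell more often than they rose (16 against 7 of 31). Orai1, the pore of the store-operated calcium channel, was 2.66-fold higher, whereas its relative Orai2, which dampens that current, was 2.44-fold lower. The values were 13.8, 17 and 18.4 CPM and 45.5, 43, 47.7, 42.2 and 39.6 CPM for Orai1, and 61.4, 69.2 and 60.1 CPM and 24.4, 25.5, 22.9, 29.4 and 28.2 CPM for Orai2. Kcna3, the potassium channel Kv1.3 of T cells, was 2.28-fold lower, Lrrc8c, a subunit of a volume-regulated anion channel, 2.9-fold lower, and the calcium pump gene Atp2a2 1.8-fold higher.

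Inside the cell, genes of the receptor's own signalling chain and those of its feedback moved in different proportions. Of 40 genes of the T cell receptor complex and its proximal signalling, 7 rose and 17 fell. Of 57 feedback regulators, 32 rose and 11 fell. Rasgrp1, which links diacylglycerol to Ras, fell from 457, 584 and 474 CPM to 159.8, 156, 146, 167 and 178 CPM (3.13-fold lower), and its relative Rasgrp2 from 18.7, 36.2 and 16 CPM to 1.38, 1.32, 1.75, 1.73 and 1.27 CPM (15.8-fold lower). Rasgrp2 was not counted in either list. The adaptor genes Pag1 and Grap2 were 3.35-fold and 2.45-fold lower. Malt1, the paracaspase upstream of NF-κB, rose from 438, 396 and 426 CPM to 979, 1157, 1132, 1231 and 1191 CPM (2.71-fold), and the inhibitory coreceptor gene Cd5 was 2.55-fold higher.

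Among the feedback genes, Spry1, an inhibitor of Ras-MAP kinase signalling, was at 6.64, 6.67 and 5.54 CPM before and 56.3, 72.8, 65.4, 67.8 and 71.1 CPM after stimulation (10.6-fold higher). Tnip3, a partner of the NF-κB inhibitor A20, was 32.7-fold higher, Nfkbid, a nuclear inhibitor of κB proteins, 6.06-fold higher, and Rgs16, a GTPase activator for G proteins, 13.8-fold higher. Pik3ip1, an inhibitor of phosphoinositide 3-kinase, was at 37.4, 38 and 20.5 CPM before and 3.03, 3.39, 3.65, 2.23 and 1.96 CPM after stimulation (11.1-fold lower). Rnf128, the ubiquitin ligase GRAIL that is linked to T cell anergy, was 5.31-fold lower, and the pseudokinase gene Trib2 4.7-fold lower. Rnf128 was counted with the proximal signalling genes.

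Several transcription factor genes known for their immediate response were higher at 24 h, the single time measured. Of 31 genes of EGR, NR4A and other nuclear receptors, 14 rose and 9 fell (median 0.45). Nr4a3 (ENSMUSG00000028341), an orphan nuclear receptor induced by receptor signalling, was at 2.19, 2.48 and 6.75 CPM without and 111, 143, 111, 163 and 176 CPM with stimulation, 36.1-fold higher (log2 5.17 ± 0.44, adjusted p = 7.9e-07). Egr1, Egr2 and Egr3 were 12-fold, 11.6-fold and 12.6-fold higher, and Egr1 was at 41.9, 23.4 and 85.7 CPM in the non-stimulated libraries against 667, 610.4, 491, 544 and 708 CPM in the stimulated ones. Without non-stimulated library 3, the highest of its group, the log2 fold change was 4.21 in place of 3.58 for Egr1 and 5.91 in place of 5.17 for Nr4a3. The EGR-binding corepressor gene Nab1 fell (2.12-fold lower).

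Of 34 AP-1, BATF and CREB/ATF genes, 16 rose and 5 fell. Atf3, a stress-induced factor, went from 11.8, 6.1 and 21.2 CPM to 118, 124, 95, 99 and 129 CPM (8.6-fold higher). Fosl1 and Fos were 7.24-fold and 6.65-fold higher (without non-stimulated library 3 the log2 fold change of Fosl1 was 3.47 in place of 2.86), and the small MAF gene Maff 4.8-fold higher. Dbp, an output gene of the circadian clock, was 3.7-fold lower and Nfil3, its antagonist at the same DNA sites, 1.53-fold lower.

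In the NFAT, NF-κB, IRF and STAT list 11 of 24 genes rose and 4 fell. The naming rule takes 3 NFAT genes. It takes at most 4 rises and 4 falls per list, so these 3 do not show how NFAT genes moved as a set. Nfat5, the calcineurin-independent member that answers osmotic stress, went from 177, 192 and 183 CPM to 673, 748, 707, 899 and 946 CPM (4.32-fold higher). Nfatc2, a calcineurin-dependent member, went from 342, 371 and 354 CPM to 213, 197, 217, 203 and 199 CPM (1.73-fold lower). Nfatc3, another such member, was 1.38-fold lower and was not called on log2 of TPM plus 0.1 (adjusted p = 0.192). Nfkb2 and Rel of the NF-κB family were 5.46-fold and 4.15-fold higher. Stat5a, which transmits IL-2 signals, was at 75.3, 72.6 and 73.4 CPM before and 439.8, 372, 394, 339 and 357 CPM after stimulation (5.15-fold higher), while Stat4, which transmits IL-12 signals, was 2.02-fold lower.

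Lineage and memory factors fell somewhat more often than they rose (18 against 14 of 47). Sox5 (ENSMUSG00000041540), a SOX factor studied mainly in cartilage and B cells, rose from 2.09, 1.76 and 2.73 CPM to 34, 44.9, 36.4, 39.5 and 33.7 CPM (17-fold, log2 4.09 ± 0.17, adjusted p = 7.9e-12). Zbtb32, a repressor of cytokine genes, was 5.96-fold higher. Myb, a factor of precursor and memory-like lymphocytes, fell from 643, 669 and 583 CPM to 66.4, 87.1, 88.8, 124 and 91.5 CPM (6.9-fold lower). Bcl6, the factor of follicular helper cells, was at 50.8, 49.1 and 23.7 CPM and 7.87, 6.68, 7.15, 8.31 and 11.7 CPM (4.94-fold lower), with non-stimulated library 3 the lowest of its group. Fli1, an ETS factor, was 3.05-fold lower. Osr2, a zinc finger factor of limb and palate development, was not counted in the list. It reached 5.1 to 12.4 CPM from 0 to 0.433 CPM (log2 fold change 5.57, or 8.06 without non-stimulated library 3). Outside the rule for named genes, and chosen after its values were seen, Mir155hg, the host transcript of a microRNA of activated lymphocytes, was 12.1-fold higher (11.3, 7.75 and 14.1 CPM to 115, 121, 134, 142 and 157 CPM).

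Factors of quiescence fell more often than they rose: 22 of 35 tested genes of the KLF, FOXO and quiescence list fell and 5 rose (median -0.47). Klf2 (ENSMUSG00000055148), which maintains quiescence and the homing receptors of naive T cells, was at 79.7, 133 and 36.8 CPM without and 1.6, 1.47, 1.2, 1.06 and 1.91 CPM with stimulation. It was 57.3-fold lower (log2 -5.84 ± 0.38, adjusted p = 5.9e-08), and non-stimulated library 2 was the highest. Klf3 was also highest in non-stimulated library 2, at 6.69, 26.9 and 6.66 CPM and 2.98, 1.87, 1.9, 1.73 and 2.83 CPM (5.92-fold lower), and without that library 2 its log2 fold change was -1.56 in place of -2.57. Not all members of the list fell: Slfn2 was 2.36-fold, Foxo1 1.41-fold and Klf6 1.36-fold higher.

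Of 38 MYC and clock factors 10 were higher (26.3%) and 14 lower (36.8%), against 25.4% and 25.2% of all genes tested. On log2 of TPM plus 0.1 the numbers were 12 and 7. Without non-stimulated library 1, and likewise without library 2, 6 of them were called higher. Myc rose from 124, 73.6 and 118 CPM to 407, 284, 337, 229 and 268 CPM (2.9-fold) and Mycn from 1.12, 0.517 and 2.16 CPM to 7.5, 15.1, 12.5, 17.2 and 11.2 CPM (9.74-fold, log2 3.28, or 3.95 without non-stimulated library 3). The third member, Mycl, was 3.24-fold lower, and Mxd4, which competes with MYC for its partner MAX, 3.82-fold lower. Bhlhe40, a factor that supports cytokine production in T cells, was at 142, 145 and 243 CPM before and 757, 782, 751, 821 and 848 CPM after stimulation (4.49-fold higher). Epas1, which encodes the hypoxia factor HIF-2 alpha, was 2.37-fold lower.

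**Figure D3:**
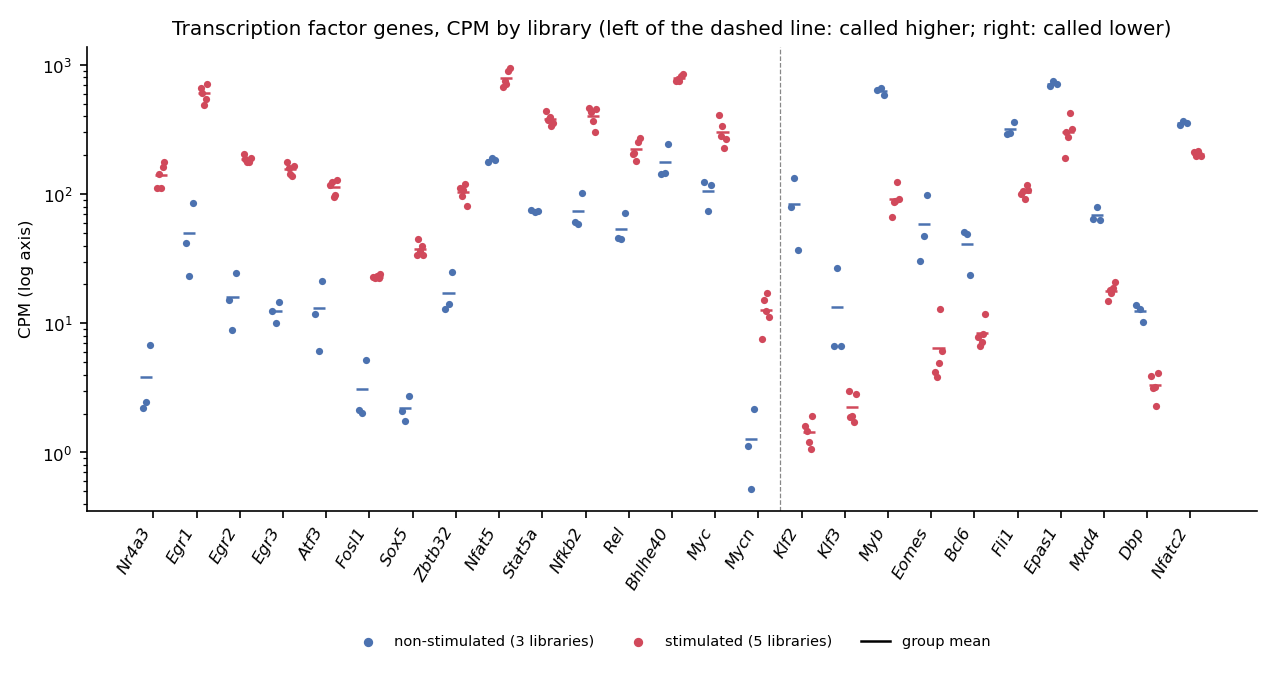
CPM on a log axis of 25 transcription factor genes in the 3 non-stimulated (blue) and 5 stimulated (red) control libraries, with a bar at each group mean. The 15 genes left of the dashed line had all red points above all blue points, and the 10 genes on the right the reverse, with Klf2 the widest gap.

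Genes of metabolism did not move in a single direction. Lists of nucleotide, amino acid and polyamine metabolism had more rises than falls, and sterol synthesis genes had more falls. The glycolysis list had shares of rises and falls near those of all genes tested. In the amino acid list, 22 of 34 genes rose and 6 fell (median 0.66). Slc7a2, a transporter of arginine and lysine, had 3 counts in all non-stimulated libraries together and was at 16, 14, 12.6, 15.9 and 9.42 CPM after stimulation, a ratio of 277 with a 95% counting interval from 94.7 to 1347. Slc7a11, the cystine importer, went from 14.6, 10.6 and 23 CPM to 51, 52.6, 35, 48 and 63.7 CPM (3.1-fold higher). Slc15a3, a transporter of histidine and peptides, was 4.56-fold higher. Cth, which makes cysteine from cystathionine, went from 8.24, 3.88 and 11 CPM to 103, 94.1, 71.6, 77.7 and 80.7 CPM (11-fold higher). Ass1, an enzyme of the route from citrulline to arginine, fell (2.28-fold lower), so that Slc7a2 and Ass1 moved in opposite directions. Other genes of arginine import and synthesis are not given here.

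Serine, one-carbon and nucleotide synthesis had 33 of 57 genes higher and 7 lower. Aldh1l2, a mitochondrial folate enzyme, rose from 15.8, 8.53 and 19.8 CPM to 69.7, 67.9, 51.5, 50.5 and 88.7 CPM (4.44-fold). Mthfd1, a cytosolic enzyme of the folate cycle, was 2.44-fold higher. The 2 CTP synthase genes diverged: Ctps went from 31.8, 25.2 and 34.3 CPM to 82.1, 71.8, 70.2, 64.1 and 63.7 CPM (2.31-fold higher) and Ctps2 from 68.8, 71.3 and 70 CPM to 30.3, 39.7, 33, 41.2 and 38.3 CPM (1.92-fold lower). Dck, the kinase of the nucleoside salvage route, was 1.59-fold lower. In the polyamine list 10 of 19 genes rose and 2 fell. Odc1, the enzyme that opens polyamine synthesis, was 2.69-fold higher and Srm, spermidine synthase, 3.28-fold higher. Oaz2, an antizyme that targets the ODC enzyme for degradation, was 1.45-fold lower.

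In glucose uptake, glycolysis and the pentose phosphate route 14 of 47 genes rose and 12 fell (median 0.01). These shares, 29.8% and 25.5%, lie near the 25.4% and 25.2% of all genes tested. Hk2, the hexokinase of growing cells, went from 86.5, 63.4 and 100.2 CPM to 313, 291, 334, 281 and 245 CPM (3.51-fold higher), and Tigar, which lowers fructose 2,6-bisphosphate, was 3.76-fold higher. Aldoc, an aldolase, was 3.06-fold lower, Pygl, glycogen phosphorylase, 4.91-fold lower, and Gpi1, glucose phosphate isomerase, 1.72-fold lower. Enzymes of the hexosamine route did not move together: Gfpt1 and Gnpnat1 were 1.78-fold and 3.1-fold higher, whereas Uap1, which completes UDP-N-acetylglucosamine, fell from 113, 149.7 and 83.9 CPM to 25.5, 33, 31, 32.4 and 34.8 CPM (3.68-fold lower).

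The TCA cycle list had 17 of 38 genes higher and 4 lower. Got1 and Mdh1, cytosolic enzymes of the malate-aspartate shuttle, were 2.91-fold and 2.46-fold higher. Gls2, which releases ammonia from glutamine, was 2.65-fold higher and Glul, which makes glutamine, fell from 142, 149.9 and 125 CPM to 47.6, 57, 46.7, 49.1 and 56 CPM (2.71-fold lower). Ucp2, a carrier of the mitochondrial inner membrane, was 2.29-fold lower. Among nuclear genes of the respiratory chain and ATP synthase 14 of 41 rose, none by 2-fold or more, and 3 fell. Without non-stimulated library 2 the number that rose was 6. Cycs, cytochrome c, was 1.84-fold higher.

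Lipid genes fell more often than they rose, at 21 against 11 of 57 for fatty acids and phospholipids and 9 against 3 of 26 for sterol synthesis. On log2 of TPM plus 0.1 the first of these lists turned, with 8 lower and 10 higher. Pcyt1b, an enzyme of phosphatidylcholine synthesis, went from 36.9, 53.9 and 27.3 CPM to 1.44, 1.21, 1.8, 2.01 and 1.62 CPM and was 24.3-fold lower (log2 -4.60 ± 0.21, adjusted p = 4.2e-11). Chdh, which oxidises choline to betaine aldehyde, was at 4.92, 7.75 and 8.18 CPM and 0.372, 0.506, 0.45, 0.446 and 0.462 CPM (15.3-fold lower). Chdh was not counted in either list. Cpt1a, which admits long-chain fatty acids to mitochondria, was 1.87-fold lower and Elovl5, an elongase of polyunsaturated fatty acids, 2.13-fold lower. Acsl4, which activates arachidonic acid, rose from 209, 189 and 258 CPM to 500.3, 639.8, 541, 610.4 and 623 CPM (2.67-fold), and Cers6, a ceramide synthase, was 3.24-fold higher. Pla2g4e, a cytosolic phospholipase, had 3 counts without stimulation and 5.35 to 9.37 CPM with it, a ratio of 159 (95% counting interval 54.1 to 771).

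Crabp2 and Aldh1a3, genes of retinoic acid transport and synthesis, were among the largest rises, although the retinoid, vitamin D and steroid list as a whole had 4 of 18 genes higher and 5 lower (3 lower without non-stimulated library 1 or 3 or stimulated library 3). The list's shares of 22.2% higher and 27.8% lower lie near the 25.4% and 25.2% of all genes tested. Crabp2 (ENSMUSG00000004885), which carries retinoic acid to its nuclear receptor, was at 0.161, 0.0517 and 0.216 CPM without and 74, 80.9, 106, 75.3 and 38.1 CPM with stimulation (489-fold higher, log2 8.93 ± 0.66, adjusted p = 2.2e-07). Aldh1a3, which makes retinoic acid from retinaldehyde, was at 0.428, 0.103 and 0.649 CPM and 53.3, 39, 34.5, 17.7 and 48.9 CPM (93.7-fold higher), lowest of the stimulated group in library 4. Its log2 fold change was 6.55, or 7.17 without non-stimulated library 3. Stra6, the receptor that takes up retinol, went from 17.7, 16.1 and 18.4 CPM to 142, 74.4, 74.6, 51 and 61.5 CPM (4.64-fold higher), highest in library 1. Dhrs3, which returns retinaldehyde to retinol, fell from 7.76, 13.9 and 5.58 CPM to 1.33, 1.92, 1, 1.78 and 1.39 CPM (6.07-fold lower). Slc13a3, a transporter of dicarboxylates, was not in that list but rose by a like size, from 0.161, 0.31 and 0.562 CPM to 39.8, 38.6, 44.2, 40.1 and 32.1 CPM (107-fold, log2 6.74, or 7.33 without non-stimulated library 3).

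Iron, redox and nutrient-sensing genes were mixed. Tfrc, the transferrin receptor, went from 151, 159 and 173 CPM to 429, 445, 431, 509 and 442 CPM (2.8-fold higher). In haem metabolism Cpox was 2.86-fold higher and Fech, which inserts iron into haem, 1.59-fold lower, while Hmox1, which breaks haem down, was 3.1-fold higher. Of 43 redox genes, 12 rose (27.9%) and 15 fell (34.9%), against 25.4% and 25.2% of all genes tested. Nqo2, a quinone reductase, was at 14.9, 22.7 and 11 CPM and 1.65, 1.62, 1.2, 2.68 and 1.44 CPM (9.43-fold lower), and Selenop, the selenium carrier, 3.35-fold lower. Txnip, which limits glucose uptake and thioredoxin, was 2.96-fold lower and its relative Arrdc3 3.46-fold lower. In the mTORC1, AMPK and nutrient-sensing list 9 of 40 genes rose and 20 fell, and 9 and 8 on log2 of TPM plus 1. Mtor itself went from 53.7, 56.5 and 55.7 CPM to 107, 97.2, 102, 99.4 and 95.7 CPM (1.82-fold higher). The stress-induced inhibitors of mTORC1 Sesn1 and Sesn2 diverged, at 2.49-fold lower and 2.27-fold higher.

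**Figure D4:**
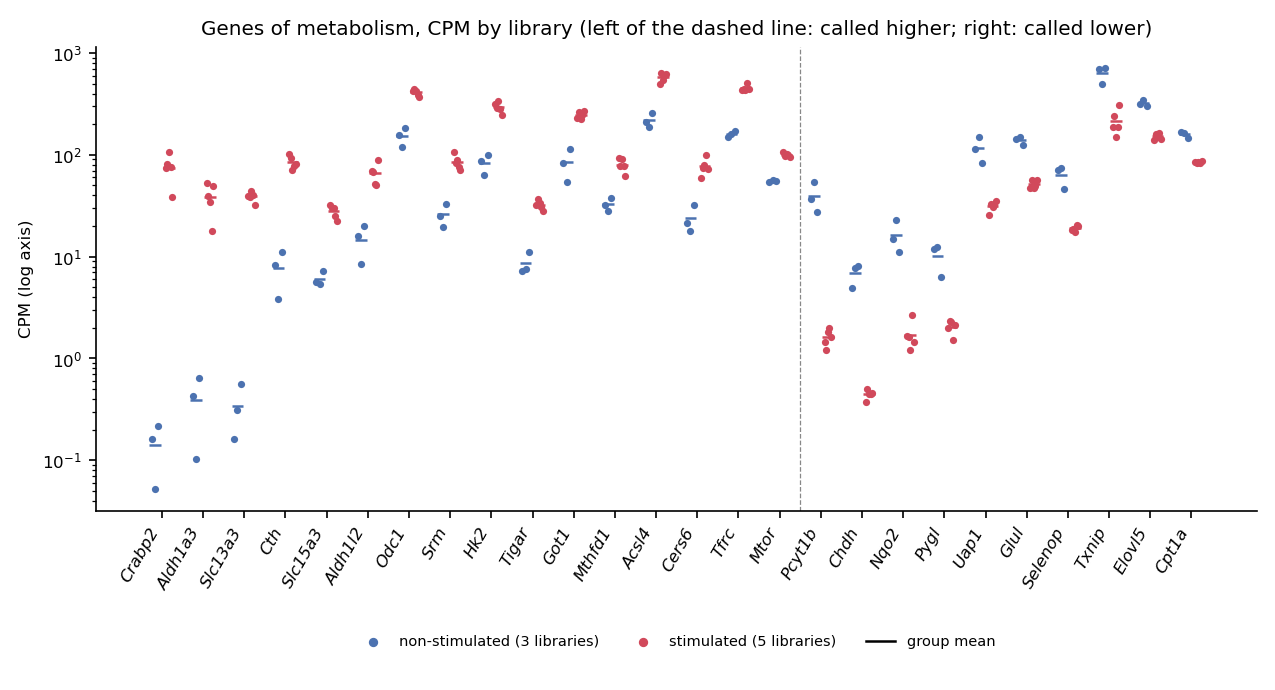
CPM on a log axis of 26 genes of metabolism in the 3 non-stimulated (blue) and 5 stimulated (red) control libraries, with a bar at each group mean. Crabp2, Aldh1a3 and Slc13a3 on the left started below 1 CPM in every non-stimulated library, and Pcyt1b and Chdh right of the dashed line show the deepest falls.

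Genes of the secretory pathway and of ribosome assembly rose more often than they fell. In the list of endoplasmic reticulum translocation, folding and Golgi export 35 of 65 genes rose and 5 fell, and its summed level went from 11218 to 15767 CPM. Hspa5, the chaperone BiP, went from 426, 316 and 628 CPM to 1094, 1213, 1019, 1036 and 1325 CPM (2.49-fold higher), and Lman1, a cargo receptor for export, was 2.38-fold higher. Exceptions were Pdia3, a disulfide isomerase (1.47-fold lower), and Stt3b, a subunit of oligosaccharyltransferase (1.5-fold lower). Of 40 ribosome biogenesis genes 35 rose and none fell (median 0.86). Nop16, a nucleolar protein, went from 10.2, 6.72 and 9.56 CPM to 36.8, 25.3, 34.3, 24.1 and 20.6 CPM (3.19-fold higher).

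Gene families defined by symbol were counted in the same way. Of 79 mitochondrial ribosomal protein genes, 47 rose and none fell. Of 35 aminoacyl-tRNA synthetase genes, 23 rose and none fell. Of 45 proteasome subunit genes, 30 rose and 1 fell. Cytosolic ribosomal protein genes moved less: 9 of 81 rose, none fell, and none of the rises reached 2-fold. The number that rose was 5 without non-stimulated library 1 or without stimulated library 1, it was 4 without non-stimulated library 2, and on log2 of TPM plus 0.1 it was 26. In the opposite direction, 8 of 14 sialyltransferase genes and 7 of 13 collagen genes fell, against 2 and 1 that rose.

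The list of DNA replication and mitosis, which also counts inhibitors of the cell cycle, had more falls than rises. Of its 44 genes 5 rose and 19 fell (median -0.19), and 3 rose without non-stimulated library 2. The inhibitor genes Cdkn1b and Cdkn2c (1.94-fold lower) were among the falls. The replication genes Rfc3 and Rfc4 were among the rises, at 1.47-fold and 1.3-fold higher. Rfc4 was not called without non-stimulated library 2 (adjusted p = 0.053). Ccnd2, a G1 cyclin, rose from 705, 693 and 826 CPM to 2024, 2275, 2204, 2319 and 2367 CPM (3.02-fold), and its relative Ccnd3 was 2.15-fold lower. Cdkn1b, the inhibitor p27, fell from 203, 252 and 182 CPM to 68.8, 92, 79.7, 97.7 and 104 CPM (2.4-fold lower), whereas Cdkn1a, the inhibitor p21, was 1.98-fold higher. Ccnb2, a mitotic cyclin, was 2.1-fold lower. The filament gene Vim, vimentin, was the largest loss per length among the genes named here, from 1603 to 697 TPM (2.55-fold lower).

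**Figure D5:**
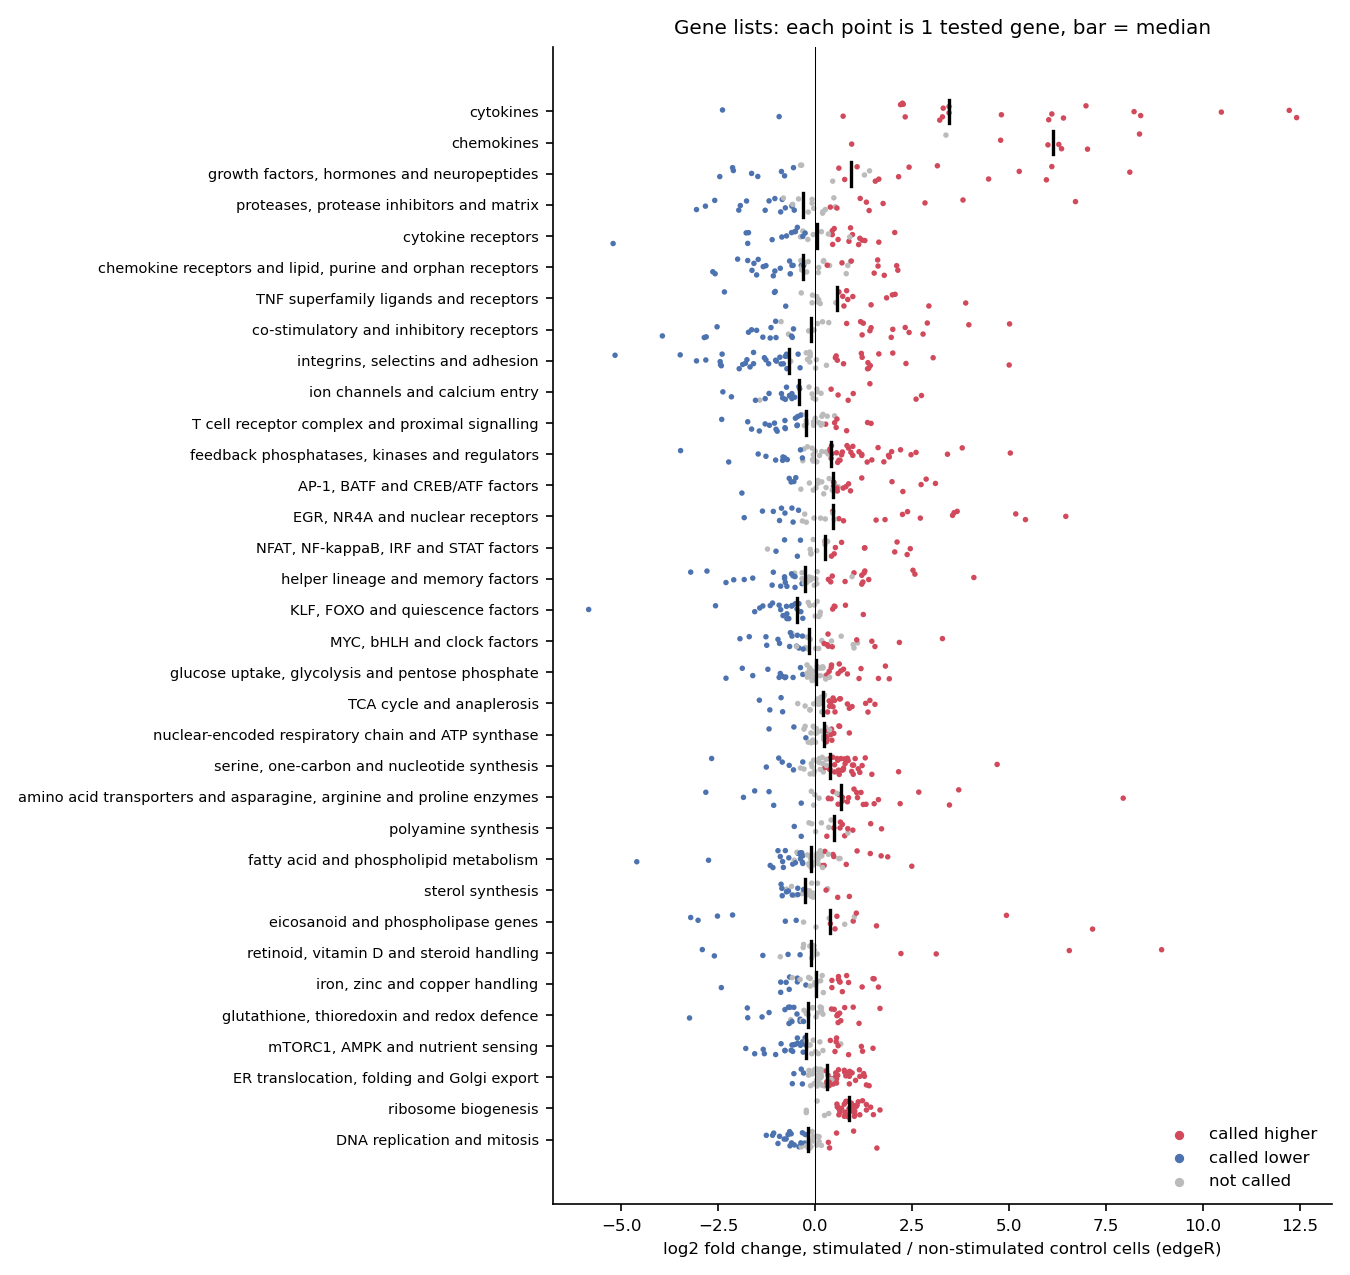
Log2 fold change of every tested gene in 34 gene lists (points, red for called higher, blue for called lower, grey for not called), with the list median as a black bar. Cytokines and chemokines lie farthest to the right, at medians of 3.45 and 6.14, and integrins, selectins and adhesion farthest to the left, at -0.68.

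The deepest falls also held genes of no list. Krt80, a keratin, was at 5.03, 9.61 and 4.07 CPM without stimulation and had 2 counts in the 5 stimulated libraries together, a ratio of 287 (95% counting interval 78.9 to 2377). Nhsl2, a relative of the Nance-Horan syndrome gene, went from 29.9, 81.8 and 18.3 CPM to 1.91, 1.32, 1.2, 1.17 and 1.04 CPM (32.3-fold lower, log2 -5.02, or -4.17 without non-stimulated library 2). Gucy2e, a guanylate cyclase known from photoreceptors, was 26.5-fold lower, and Rnf144a, a ubiquitin ligase, 19.7-fold lower. Nebl, the actin-binding protein nebulette of muscle, fell from 41.9, 47.6 and 35.2 CPM to 2.34, 2.38, 2.4, 2.06 and 3.58 CPM (16.3-fold lower). Slc9a9, an endosomal sodium-proton exchanger, was 13.3-fold lower.

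Of the 10 called genes that differed most among the stimulated libraries, by SD over mean, 6 rose and 4 fell, and 8 were highest in library 4 and 2 in library 1. Ifng, interferon gamma, was at 0.482, 0.517 and 1.86 CPM without and 92.8, 38.8, 61.5, 195 and 36.8 CPM with stimulation, with library 4 the highest. Ccl3 followed the same order at its top, at 0.642, 0.465 and 0.908 CPM and 83.8, 54.5, 64.3, 183 and 61.3 CPM, and Ccl9 at 0.214, 0.0517 and 0.0865 CPM and 43.2, 27.5, 33.9, 72.2 and 21.3 CPM. Lta, lymphotoxin alpha, was highest in library 1 instead, at 33.5, 16.4, 17.3, 10.9 and 15.5 CPM, as was Ajuba, a LIM domain scaffold, at 39.7, 14.2, 12.3, 18.8 and 14.4 CPM. The rise of Ajuba (log2 1.44) was not called without non-stimulated library 2 (adjusted p = 0.055). Pdpn, given above, was the other rise. Those that fell were Fam20a, a pseudokinase of the secretory pathway (log2 -2.59), Sytl2, a regulator of exocytosis (-2.07), Adam19, a metalloproteinase (-1.29), and Atp8b4, a phospholipid flippase (-1.13), each highest among stimulated libraries in library 4. The groups overlapped for Adam19 and Atp8b4, and Atp8b4 was not called without stimulated library 1 or 3 or non-stimulated library 3 (adjusted p = 0.053, 0.051 and 0.144). Eomes, a factor of cytotoxic cells, fell from 30.5, 47.4 and 99.2 CPM to 4.2, 3.85, 4.9, 13 and 6.13 CPM (9.26-fold lower), and was highest in non-stimulated library 3 and stimulated library 4. Gzma, which encodes granzyme A and was not called, was at 144, 170.4 and 416 CPM and 85.6, 104, 100.2, 301 and 100.4 CPM, with the same 2 libraries highest. Gzma is itself 1 of the cytotoxic markers summed above. The sum of the other 8 was 95.8, 147 and 319 CPM in the non-stimulated and 174, 134, 196, 427 and 159 CPM in the stimulated libraries, and its part in the levels of Ifng, Ccl3 and Eomes was not tested. Without stimulated library 4 the log2 fold changes were 5.84 for Ifng, 6.58 for Ccl3 and -3.63 for Eomes, and all 3 were still called. Without non-stimulated library 3 they were 7.39, 7.32 and -2.61, also called.

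The response was last set against that of the cells with VEC-Cre, as a difference of the 2 log2 fold changes (control cells minus cells with VEC-Cre, so that a negative value is a smaller rise or a deeper fall in control cells). No gene was called by edgeR, with 605 genes at an unadjusted p under 0.05, and DESeq2 called 2 genes, also with 605 at an unadjusted p under 0.05. The 2 genes were Pgk1-rs7, a copy of Pgk1 with counts in 3 of 15 libraries, and Gm14308, a clone name. The difference was -0.41 ± 0.36 (SE) for Inhba, -0.91 ± 0.45 for Olr1, -0.67 ± 0.58 for Nr4a3 and -0.05 ± 0.60 for Klf2. It was -1.08 ± 0.49 for Tpbg and -2.59 ± 1.42 for Pth, the widest of these 6. For Pth the means in control cells and cells with VEC-Cre were 87.3 and 93.2 CPM with stimulation and 0.29 and 0.0522 CPM without. For Tpbg they were 95.7 and 101 CPM with and 0.753 and 0.378 CPM without stimulation. In ratio, the genotypes thus lay closer with stimulation than without it, where levels were near the floor. A difference that is not called does not show that the responses were alike.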

How the data were processed

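RNA from bulk cultures was sequenced as total RNA with a stranded, ribosomal RNA-depleted preparation, per the labels' protocols. The authors deposited an estimated count for each of 56748 genes and 15 libraries, not scaled between libraries, and a TPM value, which allows for gene length, for the same genes. The genome build GRCm39 and the tools Salmon 1.10.1, STAR 2.7.9a and cutadapt 3.4 are named, per the submitters' processing notes. The role of each and the annotation are not given in the sources used here. How reads of near-identical genes were shared out is not stated either, so values of such genes are uncertain.

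Counts were rounded to whole numbers. As deposited, 28643 genes were at 0 in all 15 libraries, whose totals ran from 17083680 to 24185331. The filter on low counts of edgeR 4.0.16 kept 15619 genes. After scaling by trimmed means (TMM), edgeR's robust quasi-likelihood fit was run in R 4.3.3 on the 15 libraries together, each group having its own mean. Two-sided p-values were adjusted by the Benjamini-Hochberg method across these genes. CPM use the scaled library sizes. Ratios resting on 1 to 3 counts carry exact binomial 95% intervals. Where a group had 0 counts, a floor of 3 counts over its summed libraries was used. These limits reflect counting error alone, since without molecular identifiers several reads can stem from 1 molecule. The scripts were tested on simulated counts.

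The members, 34 gene lists, 13 marker lists and the families were chosen with earlier results of these data known. Genes were named by rule. It takes Gata3, Il4, Il5, Il13 and Asb2. It takes the 30 called genes that rose most and the 30 that fell most, if they reached 5 CPM in the higher group and the 8 control libraries did not overlap. It takes up to 4 rises and 4 falls per list under these conditions, and the most abundant gene of each marker list. It takes the 15 largest gains and 15 largest losses in TPM, and the 10 called genes at 10 CPM or more with the highest SD over mean in stimulated libraries. Clone names, mitochondrial, small RNA, histone and variable-segment genes and pseudogenes were left out of all but the list step. Not every gene so taken is named. Mir155hg, Cd4, Cd8a, Prf1, Flt3, Zbtb46, Itgax, Lyz2, Pgk1-rs7 and Gm14308 lie outside the rule and were chosen after their values were seen.

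Alternatives were DESeq2 1.42.0, other size factors (relative log expression), no filter, a filter of 1 CPM in 3 libraries, a fit of the 8 control libraries alone, the replicate number as a block, limma 3.58.1 on log2 of TPM plus 0.1 or 1, omission of small RNA, mitochondrial and histone genes, and omission of each control library.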

Additional observations from a re-analysis of the deposited data

Results flagged for a closer look

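Of 207 genes examined, 16 had 1 stimulated library far from the other 4, with a gap to its nearest neighbour above 0.71 of the group's whole range, Dixon's critical value for 5 samples. Chance alone gives such a gap in about 5% of groups of normally distributed values. The genes examined include some taken for their high SD over mean in these same libraries and some chosen after their values were seen. The number flagged can therefore not be set against that share. In stimulated library 4 these genes were Ccl3 at 183 CPM (highest; others 54.5 to 83.8), Eomes at 13 CPM (highest; others 3.85 to 6.13), Gls2 at 8.64 CPM (lowest; others 11.2 to 12.1), Gzma at 301 CPM (highest; others 85.6 to 104), Lrrc8c at 149.8 CPM (highest; others 111 to 120.3), Prf1 at 294 CPM (highest; others 82.1 to 139), Sytl2 at 37.9 CPM (highest; others 10.5 to 18.2) and Tfrc at 509 CPM (highest; others 429 to 445). In library 1 they were Ajuba at 39.7 CPM (highest; others 12.3 to 18.8), Itih5 at 18.3 CPM (highest; others 12 to 13.3), Lta at 33.5 CPM (highest; others 10.9 to 17.3) and Stra6 at 142 CPM (highest; others 51 to 74.6). In library 5 they were Nebl at 3.58 CPM (highest; others 2.06 to 2.4), Slamf6 at 53.6 CPM (highest; others 25.7 to 33) and Thbs1 at 2.37 CPM (highest; others 1.37 to 1.62). In library 3 the gene was Sesn1 at 9.65 CPM (lowest; others 10.5 to 10.9).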

How the results depend on the processing

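Counts of genes that rose, fell or changed at least 2-fold stayed within 1.5 times of those in the report under the alternatives run, except on the TPM scale. There 2108 (plus 0.1) and 2117 (plus 1) genes fell, and 509 fell at least 2-fold with 1 added; the cause was not tested. Leaving out each control library in turn gave 3305 to 3926 genes higher, 3377 to 3835 lower, 1132 to 1349 at least 2-fold higher and 1440 to 1620 at least 2-fold lower. For the difference of the response between genotypes, DESeq2 called 2 genes and the replicate block 1 (Pgk1-rs7), against 0 by edgeR with all libraries or without any 1 control library. Replicate numbers have no stated shared source, and same-numbered control samples did not deviate together (correlations 0.0785, -0.139 and -0.205). With the replicate block 3519 genes were higher and 3487 lower, and falls in sterol synthesis went from 9 to 5. Of 325 called genes that the naming rule takes, 291 were called under all 19 alternatives and 34 lost the call in at least 1. Leaving out stimulated libraries 4 and 5, or these and non-stimulated library 3, was chosen after seeing the data and gave 3771 and 3591 genes higher and 3575 and 3467 lower. Where a group held few counts, depth limits the fold.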
